A study of Mus musculus with 8 samples.

Results

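The netrin and Slit guidance cues and their receptors were examined in RNA-seq libraries of 4T1 spheroids, as 10 genes chosen by name: the ligands Ntn1, Ntn4, Slit2 and Slit3 and the receptors Unc5b, Unc5c, Neo1, Dcc, Robo1 and Robo2. All 10 have a row among the 41730 rows of the deposited count table. 4T1 is a mouse mammary carcinoma line grown here as hanging-drop spheroids. The shTlr7 libraries (n = 4) came from cells transduced with a lentivirus for a hairpin RNA against Tlr7, and the shCtrl libraries (n = 4) from cells with a scrambled hairpin. Both groups therefore carry a lentiviral hairpin, and each group rests on 1 hairpin as far as the labels say. The comparison asks how each transcript differs once Tlr7, an endosomal receptor for single-stranded RNA, is targeted. Whether replicates were grown as separate cultures is not stated in the labels, so p-values here measure only how these libraries vary, and that variation may be technical.

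Netrins are secreted proteins related to laminins that steer growing axons. They attract through DCC and neogenin (Neo1) and can repel through UNC5 receptors, and DCC and UNC5 proteins are also known as dependence receptors, which can trigger cell death when no ligand is bound. Slits are large secreted proteins that repel axons and migrating cells through Robo receptors. In the mouse mammary gland, netrin-1 with neogenin and Slit2 with Robo1 are known for their part in duct structure and cell adhesion, and both families are studied where tumours meet nerves.

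Tlr7 itself had 0, 4, 3 and 0 counts in shTlr7 replicates 1 to 4, against 2, 3, 2 and 2 counts in shCtrl replicates 1 to 4. It failed the filter on low counts. Fitted with every gene kept, it had a log2 fold change of -1.02 ± 0.79 (SE, edgeR adjusted p = 0.339), so the knockdown could not be checked at this depth. Library totals ran from 18111623 to 93787535 counts in shTlr7 and from 19232129 to 51476683 counts in shCtrl. Of 13393 genes tested with edgeR's quasi-likelihood test, 56.1% differed between the groups at a Benjamini-Hochberg adjusted p under 0.05, with 29.3% higher and 26.8% lower in shTlr7. These are 3927 higher and 3590 lower genes, and scaling by library size alone gave 5513 higher and 2491 lower. The carcinoma markers Epcam, Krt8, Krt18 and Cdh1 were abundant, with a sum over 8 epithelial markers of 4100 to 4380 CPM in shTlr7 and 5580 to 6050 CPM in shCtrl. CPM are counts-per-million values scaled by the trimmed mean of M values (TMM). Krt5 was at 0 in all libraries. The summed CPM of 8 endothelial markers stayed between 0.739 and 0.826 in shTlr7 and between 0.442 and 0.863 in shCtrl. For 10 neuronal and Schwann cell markers the sum was 5.99 to 6.92 CPM in shTlr7 and 7.21 to 10.6 CPM in shCtrl, with Elavl4, Snap25 and Syt1 at 0 in every library. For 8 fibroblast and pericyte markers it was 43.3 to 48.2 CPM in shTlr7 and 44.4 to 45.7 CPM in shCtrl, nearly all from Pdgfra. For 8 leukocyte markers it was 31.3 to 44.4 CPM in shTlr7 and 23.2 to 28.1 CPM in shCtrl, nearly all from Cd68, while Adgre1 and Lyz2 were at 0.

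Among the 10 genes, 5 fell in shTlr7 spheroids and 0 rose. Ntn1 and its receptor Unc5b had the larger falls, Ntn4, Slit2 and Robo1 had smaller ones, and the abundant receptor Neo1 differed little. The other 4 genes, Unc5c, Dcc, Slit3 and Robo2, were at or near 0 and failed the filter. The 5 called genes are 5 of the 6 that could be tested, where 26.8% of all tested genes were called lower. The 6 tested genes had a median log2 fold change of -0.44, beside 0.01 over all tested genes. At an unadjusted p under 0.05 the count of genes that rose was also 0, and it was 0 with DESeq2 and limma-voom. The number-4 libraries of both groups stood apart from the rest on the second principal component, which held 4.85% of the variance. Without them the edgeR count was 5 lower and 0 higher, as with all libraries. Of the 7 epithelial markers tested, the 5 keratins fell in shTlr7, with log2 fold changes from -3.50 (Krt14) to -0.37 (Krt8), while Epcam rose by 0.15 (edgeR adjusted p = 0.0297) and Cdh1 by 0.20 (edgeR adjusted p = 7.14e-04). Of the 2 leukocyte markers tested, Cd68 rose to 38.5 CPM in shTlr7, against 23.4 CPM in shCtrl (edgeR adjusted p = 1.41e-04), and Csf1r fell to 0.241 CPM in shTlr7, against 1.14 CPM in shCtrl (edgeR adjusted p = 4.39e-06). The part of these marker changes in the fall of the guidance genes was not tested. In spheroids measured in bulk, fewer cells that express a gene and less RNA per cell cannot be told apart.

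**Figure D1:**
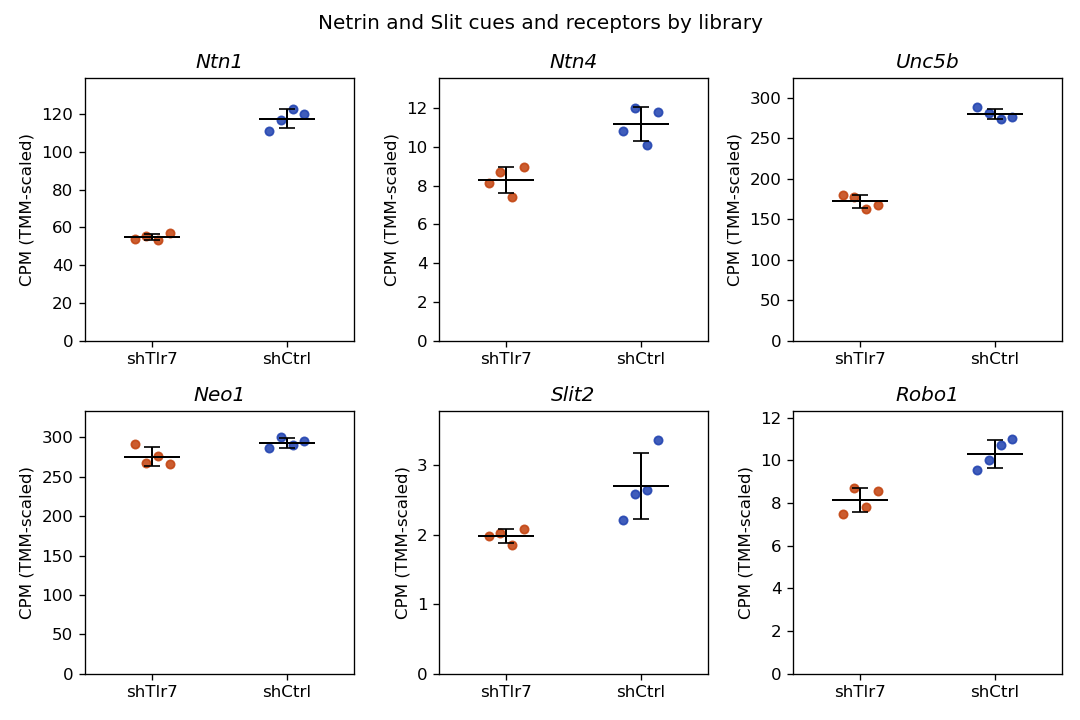
CPM (TMM-scaled, vertical axes starting at 0) of the 6 tested genes, with 1 point per library, shTlr7 left of shCtrl, the mean as a horizontal line and the SD as a bar (n = 4 each). The groups do not overlap for Ntn1, Ntn4, Unc5b, Slit2 and Robo1, with the largest fold difference for Ntn1 (55.0 against 118 CPM on average), and they overlap for Neo1.

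Ntn1 encodes netrin-1, the best studied of the secreted netrins (chromosome 11, 68209364 to 68386826, minus strand, GRCm38.p6). It had 54.0, 55.3, 53.4 and 57.1 CPM in shTlr7 replicates 1 to 4, against 111, 117, 123 and 120 CPM in shCtrl replicates 1 to 4. Every shTlr7 library was below every shCtrl library. That separation held for 23.8% of all tested genes, and separation in either direction for 49.8%. The mean was 55.0 ± 1.66 CPM in shTlr7 and 118 ± 5.13 CPM in shCtrl (SD, n = 4 each), a log2 fold change of -1.10 ± 0.045 (SE, edgeR adjusted p = 5.33e-10), or 0.467 times the shCtrl level. The estimate rests on 9943 counts in shTlr7 and 12961 in shCtrl.

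Ntn4 encodes netrin-4, which binds laminin chains in basement membranes (chromosome 10, 93641049 to 93745972, plus strand). It had 8.15, 8.70, 7.39 and 8.93 CPM in shTlr7 replicates 1 to 4, against 10.8, 12.0, 10.1 and 11.8 CPM in shCtrl replicates 1 to 4. The groups did not overlap, but the gap between the highest shTlr7 and the lowest shCtrl library was narrower than the range within either group. Ntn4 fell by 0.44 ± 0.088 on the log2 scale (SE, edgeR adjusted p = 8.75e-04), to 0.739 times the shCtrl level. The interval of this change, from -0.63 to -0.25, lay apart from that of Ntn1, from -1.20 to -1 (95%, from the standard errors of the fit). In counts within a library, which do not depend on scaling between libraries, there were 0.151 ± 0.0087 Ntn4 reads for each Ntn1 read in shTlr7 and 0.0952 ± 0.0091 in shCtrl (SD, n = 4 each).

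Unc5b encodes a netrin receptor with a cytoplasmic death domain, known in mice for its expression in sprouting vessels (chromosome 10, 60762594 to 60831581, minus strand). It had 180, 177, 163 and 167 CPM in shTlr7 replicates 1 to 4, against 288, 281, 274 and 276 CPM in shCtrl replicates 1 to 4. The groups were far apart, and replicates within each varied by 4.64% in shTlr7 and 2.23% in shCtrl (coefficient of variation). Unc5b fell by 0.70 ± 0.042 on the log2 scale (SE, edgeR adjusted p = 1.46e-08), to 0.614 times the shCtrl level.

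Neo1 encodes neogenin, which binds netrins and the repulsive guidance molecules (chromosome 9, 58874679 to 59036614, minus strand). It had 292, 268, 277 and 266 CPM in shTlr7 replicates 1 to 4, against 287, 301, 290 and 295 CPM in shCtrl replicates 1 to 4. The groups overlapped: shTlr7 replicate 1 lay above shCtrl replicates 1 and 3. The log2 fold change was -0.09 ± 0.041 (SE, edgeR adjusted p = 0.0693), with a 95% interval from -0.18 to 0.00. This value sits at the edge of the threshold. It was past it without shTlr7 replicate 1 (-0.12, edgeR adjusted p = 0.0234), with at least 1 CPM in 4 libraries (-0.10, edgeR adjusted p = 0.0475), with DESeq2 (-0.10, adjusted p = 0.0386) and with limma-voom (-0.09, adjusted p = 0.0379), and it turned to 0.01 under scaling by library size alone.

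The promoters of these 2 netrin receptors are shown because their transcripts, both abundant, differed in how far they moved. They are RefSeq sequences of build GRCm38.p6, 300 bases from 250 before to 50 after an annotated start. Both are on the minus strand and written 5′ to 3′ in the direction of transcription. The start used for Unc5b is the upstream end of the gene position given above, whereas that used for Neo1 lies inside its gene position. Capitals mark the GC box, GGGCGG or its reverse complement.
Unc5b, chr10:60831532-60831831: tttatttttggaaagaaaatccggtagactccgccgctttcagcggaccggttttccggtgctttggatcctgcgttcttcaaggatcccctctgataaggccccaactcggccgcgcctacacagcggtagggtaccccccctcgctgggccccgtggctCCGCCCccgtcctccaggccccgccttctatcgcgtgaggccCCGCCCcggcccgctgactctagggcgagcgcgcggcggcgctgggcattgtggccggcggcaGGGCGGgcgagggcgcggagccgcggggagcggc
Neo1, chr9:59036392-59036691: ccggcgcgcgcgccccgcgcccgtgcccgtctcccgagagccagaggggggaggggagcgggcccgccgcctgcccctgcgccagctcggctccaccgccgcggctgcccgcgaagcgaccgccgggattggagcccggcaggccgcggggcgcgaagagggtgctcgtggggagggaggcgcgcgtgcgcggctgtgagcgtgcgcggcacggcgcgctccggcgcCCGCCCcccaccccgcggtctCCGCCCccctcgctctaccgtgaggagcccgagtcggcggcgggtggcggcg
Unc5b held 3 GC boxes and Neo1 held 2, with no overlap between matches in either, and 35.7% of the 32851 promoters of this length in the table held at least 1. The Unc5b window had 36 CG dinucleotides and the Neo1 window 54, where the median promoter had 7. A search of both strands found the CCAAT box, CCAAT, once in Neo1 and not in Unc5b (37.4% of all promoters). The TATA box TATAAA (13.6% of all promoters) and the AP-1 motif TGANTCA (7.81%) had no match in either window. These matches describe the letters of the windows and say nothing of a factor's binding.

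**Figure D2:**
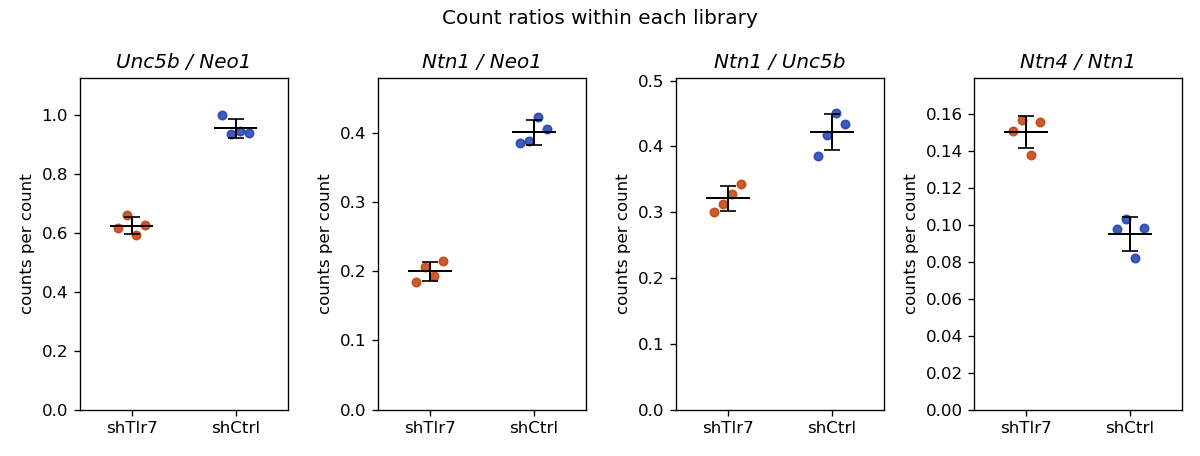
Read counts of 1 gene divided by those of another in the same library, with 1 point per library, shTlr7 left of shCtrl, the mean as a line and the SD as a bar (n = 4 each, vertical axes starting at 0). The ratios of Unc5b to Neo1, Ntn1 to Neo1 and Ntn1 to Unc5b are lower in every shTlr7 library than in any shCtrl library, and that of Ntn4 to Ntn1 is higher.

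The balance among the abundant netrin genes shifted with these changes. For each Neo1 read there were 0.616, 0.661, 0.590 and 0.627 Unc5b reads in shTlr7 replicates 1 to 4, against 1, 0.933, 0.943 and 0.936 in shCtrl replicates 1 to 4. The Ntn1 reads for each Neo1 read were 0.185, 0.207, 0.193 and 0.215 in shTlr7 replicates 1 to 4, against 0.386, 0.389, 0.424 and 0.406 in shCtrl replicates 1 to 4. Ntn1 also fell relative to Unc5b, at 0.321 ± 0.018 Ntn1 reads for each Unc5b read in shTlr7 and 0.421 ± 0.027 in shCtrl (SD, n = 4 each). This does not extend to Ntn4, which fell less than Unc5b, with log2 fold changes of -0.44 and -0.70. None of these 3 read ratios overlapped between the groups. No test was made of them since the genes were picked with earlier results known.

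Slit2 encodes a secreted Slit ligand (chromosome 5, 47981291 to 48307735, plus strand). It had 1.98, 2.03, 1.85 and 2.08 CPM in shTlr7 replicates 1 to 4, against 2.21, 2.59, 2.65 and 3.36 CPM in shCtrl replicates 1 to 4. The groups did not overlap, but shCtrl replicate 1 lay close above the shTlr7 libraries and shCtrl replicate 4 well above the rest of its group. Slit2 fell by 0.44 ± 0.15 on the log2 scale (SE, edgeR adjusted p = 0.0202), with a 95% interval from -0.76 to -0.13. The call rests on 361 counts in shTlr7 and 297 in shCtrl. It was lost without shCtrl replicate 4 (-0.34, edgeR adjusted p = 0.0584), without shTlr7 replicate 3 (-0.41, edgeR adjusted p = 0.0514), with all libraries thinned to the smallest total (-0.39, edgeR adjusted p = 0.0743) and under scaling by library size alone (-0.34, edgeR adjusted p = 0.0643).

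Slit3, the other Slit among the 10 genes (chromosome 11, 35121456 to 35708507, plus strand), had 0 counts in all 8 libraries. With 3 counts as the limit that a count of 0 allows, its level was at most 0.0172 CPM over the pooled shTlr7 libraries and 0.0262 CPM over the pooled shCtrl libraries, counting error only. Slit2 and Slit3 each hold a copy of the microRNA miR-218 within the gene, whose mature 5p arm has 1 sequence at both loci. It is shown with its seed, bases 2 to 8, in capitals, from RefSeq (GRCm38.p6), because both Slit loci hold it.
mmu-miR-218-5p, chr5:48223966-48223986 and chr11:35616840-35616860, plus strand: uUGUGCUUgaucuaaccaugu
The rows of both hairpins, Mir218-1 and Mir218-2, had 0 counts in every library. The libraries were made from total RNA with the TruSeq RNA kit, which is not designed to capture mature microRNAs.

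Robo1 encodes the main Slit receptor measured here (chromosome 16, 72027518 to 73047491, plus strand). It had 7.50, 8.70, 7.79 and 8.56 CPM in shTlr7 replicates 1 to 4, against 9.54, 10.0, 10.7 and 11.0 CPM in shCtrl replicates 1 to 4. The groups did not overlap. Robo1 fell by 0.33 ± 0.084 on the log2 scale (SE, edgeR adjusted p = 0.00412), to 0.795 times the shCtrl level, on 1511 counts in shTlr7 and 1131 in shCtrl. For each Robo1 read there were 0.245 ± 0.014 Slit2 reads in shTlr7 and 0.261 ± 0.031 in shCtrl (SD, n = 4 each), and these ratios overlapped between the groups.

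The remaining receptors were near the detection limit. Dcc, the classical attractive netrin receptor (chromosome 18, 71253613 to 72351228, minus strand), had 6, 15, 1 and 1 counts in shTlr7 replicates 1 to 4, against 2, 2, 0 and 0 counts in shCtrl replicates 1 to 4. Most of its reads came from 2 shTlr7 libraries, and the groups overlapped in CPM. The 23 pooled counts in shTlr7 against 4 in shCtrl gave a rate ratio of 3.77 (exact 95% interval from 1.29 to 15, counting error only). Fitted without a filter on low counts, Dcc had a log2 fold change of 1.71 ± 0.75 (SE, edgeR adjusted p = 0.0677). This p was 0.0305 without shTlr7 replicate 3, 0.0333 without shTlr7 replicate 4, 0.0290 without shCtrl replicate 1 and 0.305 without shTlr7 replicate 2 (edgeR adjusted p in each case), so single libraries decide it. Robo2, another Slit receptor (chromosome 16, 73891976 to 75447443, minus strand), had 1 count in shTlr7 and 1 in shCtrl. Unc5c, another UNC5 receptor (chromosome 3, 141465564 to 141834924, plus strand), had 0 counts in all libraries, with the same pooled limits as Slit3. No difference in Unc5c, Slit3 or Robo2 was detectable at this depth.

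**Figure D3:**
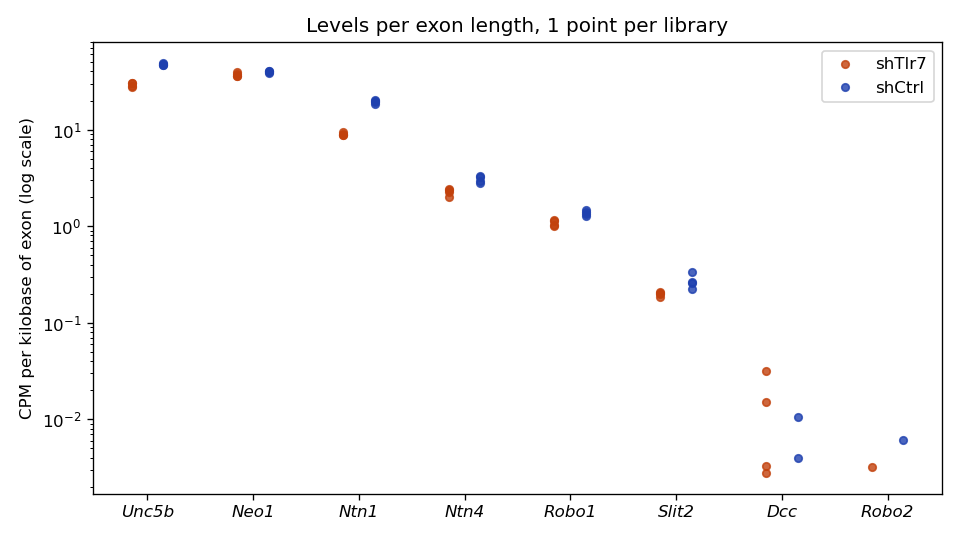
CPM divided by the kilobases of exon of each gene (log scale), with 1 point per library and shTlr7 left of shCtrl within each gene. Libraries at 0 cannot be drawn on this axis, so Dcc lacks 2 shCtrl points and Robo2 3 points of each group, and Unc5c and Slit3 are left out. Unc5b is above Neo1 in shCtrl and below it in shTlr7.

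Levels of different genes were compared per kilobase of exon, with lengths from GENCODE M21. In shTlr7 the order was Neo1 with 37.4 ± 1.6 CPM per kilobase, Unc5b with 29.3 ± 1.4, Ntn1 with 9.02 ± 0.27, Ntn4 with 2.27 ± 0.19, Robo1 with 1.08 ± 0.077 and Slit2 with 0.199 ± 0.0099 CPM per kilobase (SD, n = 4). In shCtrl, Unc5b came first with 47.7 ± 1.1 and Neo1 next with 39.7 ± 0.83, followed by Ntn1 with 19.3 ± 0.84, Ntn4 with 3.06 ± 0.24, Robo1 with 1.36 ± 0.088 and Slit2 with 0.270 ± 0.048 CPM per kilobase (SD, n = 4). Unc5b and Neo1 thus exchanged places between the groups. Their libraries did not overlap in either group, at 27.8 to 30.7 for Unc5b and 36.0 to 39.6 for Neo1 in shTlr7, and at 46.7 to 49.1 for Unc5b and 38.9 to 40.8 for Neo1 in shCtrl, all in CPM per kilobase. No other neighbours among these 6 genes overlapped in either group, whereas Dcc and Robo2, at the end of the order, did. The place of Unc5b and Neo1 depends on the annotated lengths of 5.87 and 7.38 kilobases, since the transcript forms present in these cells were not measured. None of the 6 genes shares exon bases with another annotated gene.

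Genes with a profile like those of the most abundant receptors were sought by the root-mean-square difference of mean-centred log2 CPM over the 8 libraries. For Neo1 they included Slk and Iqgap1, with differences of 0.019 and 0.024 and log2 fold changes of -0.09 and -0.06. For Unc5b they were Nedd9, Acaa2 and Edem1, with differences of 0.044, 0.047 and 0.049 and log2 fold changes of -0.69, -0.69 and -0.72. The difference between the groups makes up most of the Unc5b profile, so this likeness is mainly a like fold change.

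Of the 11 netrin, UNC5, DSCAM, Slit and Robo genes outside the 10, only 2 passed the filter. Ntng2, a membrane-anchored netrin that does not use DCC or UNC5 receptors, had 13.1, 13, 11.5 and 11.3 CPM in shTlr7 replicates 1 to 4, against 9.71, 8.18, 9.79 and 8.97 CPM in shCtrl replicates 1 to 4. All shTlr7 libraries were above all shCtrl libraries, as for 26% of all tested genes. Ntng2 rose by 0.43 ± 0.087 on the log2 scale (SE, edgeR adjusted p = 8.62e-04), where 29.3% of all tested genes were called higher. Slit1 had a log2 fold change of 0.23 ± 0.27 at 0.522 CPM in shTlr7 and 0.389 CPM in shCtrl (SE, edgeR adjusted p = 0.623). Ntng1 and Dscam were at 0 in all libraries.

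**Figure D4:**
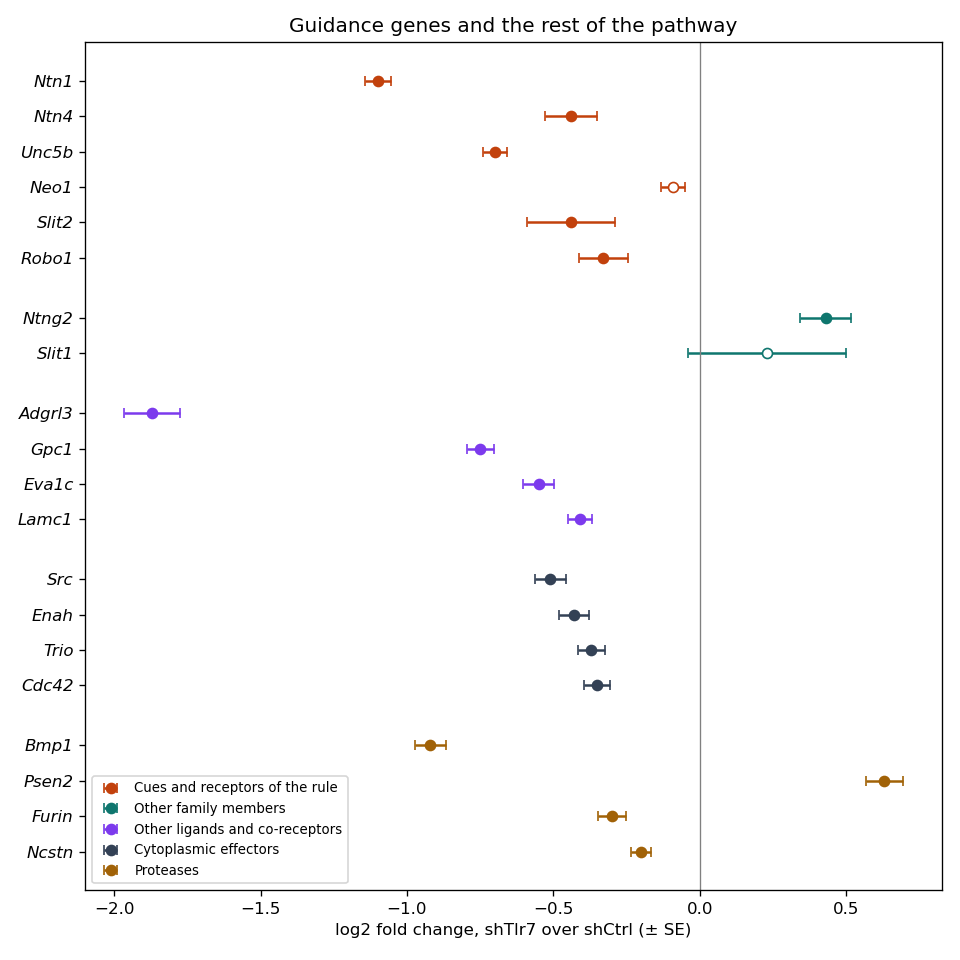
Log2 fold change of shTlr7 over shCtrl (horizontal axis) with its standard error for the 6 tested genes and for up to 4 genes of each further pathway list with the lowest p. Filled points passed an edgeR adjusted p under 0.05 and open points (Neo1 and Slit1) did not. Ntn1 and Unc5b lie furthest left among the 6, and Adgrl3 furthest left of all genes drawn, at -1.87.

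Among 18 genes for other proteins that bind these cues or receptors, 13 were tested. Of these 8 fell and 2 rose in shTlr7, where 26.8% of all tested genes fell and 29.3% rose. Their median log2 fold change was -0.18, beside 0.01 over all tested genes. Adgrl3, an adhesion receptor (latrophilin-3) that binds UNC5 and FLRT proteins, fell to 3.62 CPM in shTlr7, against 13.2 CPM in shCtrl, a log2 fold change of -1.87 ± 0.096 (SE, edgeR adjusted p = 4.08e-09). The heparan sulfate proteoglycan Gpc1, which binds Slit, fell by 0.75 on the log2 scale, the Slit-binding receptor Eva1c by 0.55, and the laminin chain Lamc1, a partner of netrin-4, by 0.41. Of the neogenin ligands, both picked once their values were known, Rgma had a log2 fold change of 0.00 (edgeR adjusted p = 0.970), and Rgmb fell by 0.36 on the log2 scale (edgeR adjusted p = 0.00331). The 2 higher genes were the netrin-1 binding partners Mcam and Adora2b, likewise chosen after their values were seen, with log2 fold changes of 0.70 and 0.69 (edgeR adjusted p = 2.66e-04 and 0.0183). For Adora2b the groups overlapped, at 0.643 to 1.24 CPM in shTlr7 and 0.561 to 0.809 CPM in shCtrl. The count of higher genes was 1 without shTlr7 replicate 2, shCtrl replicate 2 or shCtrl replicate 3.

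Among 32 genes for cytoplasmic proteins known downstream of these receptors, 28 were tested. In shTlr7, 16 fell, 5 rose and 7 were not called, against 26.8% of all tested genes that fell and 29.3% that rose. Their log2 fold changes ran from -0.51 to 0.45 around a median of -0.19. The tyrosine kinase Src fell to 133 CPM in shTlr7, against 189 CPM in shCtrl, a log2 fold change of -0.51 ± 0.052 (SE, edgeR adjusted p = 2.52e-06). The actin regulator Enah fell by 0.43, the guanine nucleotide exchange factor Trio by 0.37 and the GTPase Cdc42 by 0.35 on the log2 scale. The Src-family kinase Fyn, chosen after its values were seen, rose by 0.45 on the log2 scale (edgeR adjusted p = 8.71e-05). Of the other kinases on the list, also named after their values were seen, Abl1 and Abl2 each fell by 0.29 and Pak1 by 0.16, and Ptk2 and Dapk1 were not called, at 0.01 and -0.01. The count of higher genes was 3 without shTlr7 replicate 1, shCtrl replicate 1, shCtrl replicate 2 or shCtrl replicate 3.

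Among 11 genes for proteases that cut these cues or receptors, 10 were tested, of which 4 fell and 4 rose in shTlr7. Over all tested genes 26.8% fell and 29.3% rose, an even split as well, and the median log2 fold change of the proteases was -0.04. Bmp1, of the tolloid family, one member of which cuts Slit in flies, fell to 398 CPM in shTlr7, against 752 CPM in shCtrl, a log2 fold change of -0.92 ± 0.052 (SE, edgeR adjusted p = 9.84e-09). The stromelysin Mmp3, chosen after its values were seen, had the lowest value of this list, a log2 fold change of -1.90 (edgeR adjusted p = 8.93e-04). The proprotein convertase Furin fell by 0.30 on the log2 scale. Within gamma-secretase, which cleaves shed DCC and neogenin in the membrane, Psen2 rose by 0.63 and Ncstn fell by 0.20 on the log2 scale. Adam10, a sheddase of Robo1 chosen after its values were seen, had a log2 fold change of -0.05 (edgeR adjusted p = 0.430).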

How the data were processed

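RNA-seq was made from 8 spheroid samples, grouped by their titles. The authors deposited whole-number read counts per gene, with no normalization. Per the submitters' processing notes, the tools were STAR 2.7.5 and DESeq2 1.32.0 and the build GRCm38. Which program counted reads, on which strand and annotation, is not given in the sources used here, and reads of antisense partners cannot be told apart. The fit used edgeR 4.0.16 in R 4.3.3, with filterByExpr by group, TMM scaling, robust glmQLFit and glmQLFTest on the group term alone, and Benjamini-Hochberg adjustment over all 13393 tested genes. A standard error is the size of a log2 fold change over the root of its F. CPM used TMM-scaled library sizes. Alternatives used DESeq2 1.42.0 and limma 3.58.1. In simulated counts, 48 to 50 of 13254 genes were changed at each fold from 1.25 to 3. Of 194 calls, 9.28% fell on unchanged genes, above the nominal level. Recovery was 76% at a fold of 1.25 and 100% at a fold of 3. In the data 56.1% of tested genes were called, far more than were changed in the simulation, so these shares need not hold for the calls reported.

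The genes and lists were chosen with earlier results of these data known. Named are the 10 genes, Tlr7, up to 4 tested genes with the lowest p per pathway list, and 3 genes with the closest profile for each of the 2 members with the highest mean CPM; some genes are not reported here. No pair of libraries in a group agreed within sampling noise, with chi-square per degree of freedom from 2.23 to 21.9. Exact intervals and limits at a count of 0 cover counting error only.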

Additional observations from a re-analysis of the deposited data

Results flagged for a closer look

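Among 40 sets of 4 CPM values, 1 for each group of 20 named genes, 1 held a library far from the other 3, where chance gives about 1 in 20 sets. It was Cdc42 in shTlr7, with 338 CPM in replicate 4 against 359, 356 and 356 CPM in replicates 1 to 3. The gap came to 0.849 of the group's range, past Dixon's 95% limit for 4 samples. None of the 6 tested guidance genes was flagged.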

How the results depend on the processing

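Ntn1 and Unc5b kept their direction and their call under all 20 alternatives, with log2 fold changes from -1.13 to -0.99 and from -0.73 to -0.60. Ntn4 (-0.49 to -0.33) and Robo1 (-0.37 to -0.23) lost the call only where a fold of 1.5 was the null (glmTreat), which left 2 of the 10 genes lower. That setting tests a larger change, and it gave 472 higher and 666 lower genes in all, 0 higher and 2 lower binding partners, 0 and 0 effectors, 0 and 2 proteases, and 0 higher other family members. Neo1 turned to 0.01 by library size alone, which moved the median of all genes to 0.115 (0.011 with TMM) and the split to 5513 higher and 2491 lower, against 3927 and 3590 with TMM. Under that scaling the other 5 tested guidance genes ran from -0.99 to -0.23. The count of guidance genes called lower was 6 with DESeq2, limma-voom and a minimum of 1 CPM in 4 libraries, 4 by library size alone, at an adjusted p under 0.01 and with thinned libraries, and 4 to 6 when leaving out 1 library. Higher binding partners numbered 1 with DESeq2, with the 1 CPM minimum and at an adjusted p under 0.01, and 1 to 3 when leaving out 1 library. Higher effectors numbered 3 at an adjusted p under 0.01 and 3 to 5 when leaving out 1 library. The cause of these shifts was not tested.

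The main fit did not treat the replicate numbers as pairs, and the labels do not state whether they are. Same-numbered libraries deviated together with correlations from -0.0068 (number 1) to 0.38 (number 4), and 4 of 8 libraries were closest to their own number. These values do not settle whether the numbers mark pairs. With the replicate block, 5 guidance genes were lower and 0 higher, and 4334 genes were higher and 4005 lower. Slit2, Dcc and Tlr7 are limited by depth.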
